A study of Mus musculus with 4 samples.

Results

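A set of 10 genes for S100, actin-binding, sugar-binding and LIM-domain proteins and a large scaffold was followed across the immune cell classes of ascites, spleen and blood. The genes are the S100 genes S100a4, S100a6, S100a10, S100a11 and S100a13, the thymosins Tmsb4x and Tmsb10, the galectin Lgals1, the LIM-domain gene Crip1 and the scaffold gene Ahnak. They are 10 of the 32285 genes in the deposited matrices. They were chosen from measured values, as genes that stood out between treated and vehicle mice in T, Treg, monocyte and macrophage classes, so their values between the arms in those 4 classes are a description. Counts past a threshold there are given together, and again where the processing is varied, and support nothing. Tests that bear on the genes are given only for B cells, natural killer (NK) cells and dendritic cells, and for comparisons between tissues or T cell subsets of vehicle mice. Of these, the vehicle comparisons of T, Treg and monocyte classes reuse values that entered the choice of the genes. They are not independent of it.

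S100 proteins are small EF-hand proteins, and most of them bind calcium and then dock onto partners such as non-muscle myosin. S100A10 is an exception that does not bind calcium and still joins annexin A2 and the scaffold AHNAK. Thymosin beta 4 (Tmsb4x) and thymosin beta 10 (Tmsb10) bind monomeric actin and so set how much of it can polymerise. Galectin 1 (Lgals1) binds beta-galactoside sugars on cell surfaces. Many of these genes are low in resting lymphocytes and high in effector and memory T cells, monocytes and migrating dendritic cells.

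The mice were B6 animals carrying BeCon tumours, named in the series title as ovarian cancer. The 2 arms received vehicle or YKL-05-099, which inhibits salt-inducible kinases; these enzymes phosphorylate the CRTC proteins and so keep them from switching on CREB target genes. The hashtag notes name the arms control and treated, and control is read as the vehicle control of the series' design. Viable CD45+ MHCI+ cells were sorted, tagged with a hashtag antibody for each mouse and tissue, and pooled into a library of ascites and a library of spleen and blood. Ascites had 4 vehicle and 4 treated mice, and the spleen and blood library held 3 of each arm, numbered 1 to 3 for vehicle and 2 to 4 for YKL-05-099. Dose, duration, vehicle composition and age are not given in the sources used here. Whether same-numbered spleen, blood and ascites samples are the same animal is taken from the hashtag notes, and all cells of a tissue type passed through a single library.

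The ascites library held 134034611 gene UMIs (unique molecular identifiers, each a counted transcript) over 13688 barcodes, and the other held 92064806 over 14792. After quality filters and hashtag assignment 4368 ascites cells and 5682 spleen and blood cells were kept. In ascites the assignment called 37.9% of the filtered barcodes doublets and 22.8% negative. Of those doublets, 2354 had at least 80% of their hashtag UMIs on a single tag, and their median of 12183.5 UMIs compares with 5575 in kept cells, so the barcodes set aside had more RNA than those kept. In spleen and blood the same kind of barcode was closer to the kept cells, at 6093.5 against 5654 UMIs. Doublets of cells from the same mouse and tissue carry a single tag and remain. The libraries shared 52 barcode sequences. Levels below are CPM, a gene's UMIs per 1000000 UMIs of the class in a mouse. A mouse entered with at least 20 cells of the class unless 10 is stated. Mice are the replicates of the p-values, except where the treatment effect is compared between ascites and spleen B cells. There both tissues of a mouse entered as separate samples. The spread of each gene is drawn by edgeR towards that of other genes. With so few mice a p-value can thus be smaller than the spread of that gene alone would give. In these sums, fewer cells of a kind and less RNA per cell cannot be told apart. All 10 genes passed the low-count filter in each class described here, and a gene is called past the threshold at an edgeR Benjamini-Hochberg adjusted p under 0.05 over all genes tested. Crem, a CREB target used as a check of treatment, rose in ascites B cells from 20.1 to 154 CPM, a log2 change of 2.81 ± 0.22 (SE, edgeR adjusted p = 1.8e-13, n = 4 and 4).

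The 2 thymosins are members of the same family. Their coding sequences are shown because Tmsb10 and Tmsb4x separate in several classes below. Both are 135 bases long and 70.4% identical, and capitals mark the 40 bases that differ.
Tmsb4x: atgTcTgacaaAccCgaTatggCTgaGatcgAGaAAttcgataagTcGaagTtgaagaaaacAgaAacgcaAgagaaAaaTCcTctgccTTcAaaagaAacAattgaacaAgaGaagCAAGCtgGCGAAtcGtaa
Tmsb10: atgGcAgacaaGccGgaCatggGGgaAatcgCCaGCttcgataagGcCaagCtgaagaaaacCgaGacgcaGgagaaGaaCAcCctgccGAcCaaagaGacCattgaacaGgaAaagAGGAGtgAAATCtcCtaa
Tmsb4x lies at chrX:167207093-167209315 on the minus strand and Tmsb10 at chr6:72957347-72958748 on the minus strand (GRCm38). S100a13 at chr3:90514435-90524581, S100a4 at chr3:90603771-90606045 and S100a6 at chr3:90612882-90624181 lie on the plus strand of chromosome 3. S100a11 at chr3:93520488-93526287 and S100a10 at chr3:93555080-93564643 lie further along the same chromosome and strand. Lgals1 is at chr15:78926725-78930465, Crip1 at chr12:113146316-113153879 and Ahnak at chr19:8989284-9076914, all on the plus strand.

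Because the drug's target pathway ends in CREB, the 250 bases before each start were searched on both strands for the cAMP response element TGACGTCA, its shorter form TGACG, and the AP-1-type element TGANTCA, in RefSeq promoters of GRCm38.p6. Promoters of 8 of the 10 genes were found. None of the 8 held TGACGTCA, against 1.77% of 27025 genes. TGACG was in 2 of 8, S100a13 and Tmsb4x, against 19.8% of genes. TGANTCA was in S100a11 only, against 7.82% of genes. The promoters of S100a11 (chr3:93520246-93520495, plus strand) and Tmsb4x (chrX:167209219-167209468, minus strand) are shown with the matches in capitals. The match in Tmsb4x reads as the reverse complement of TGACG.
S100a11 promoter: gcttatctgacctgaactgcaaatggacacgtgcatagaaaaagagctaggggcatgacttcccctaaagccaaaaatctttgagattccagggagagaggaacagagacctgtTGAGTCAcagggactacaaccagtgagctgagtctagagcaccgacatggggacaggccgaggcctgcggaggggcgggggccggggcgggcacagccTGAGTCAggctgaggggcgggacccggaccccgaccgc
Tmsb4x promoter: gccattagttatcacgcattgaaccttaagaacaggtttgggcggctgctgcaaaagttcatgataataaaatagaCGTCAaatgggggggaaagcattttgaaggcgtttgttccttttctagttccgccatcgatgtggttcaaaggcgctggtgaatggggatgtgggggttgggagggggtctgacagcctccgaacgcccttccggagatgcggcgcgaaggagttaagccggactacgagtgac
S100a11 holds TGANTCA at 2 places. These matches describe letters in a window and say nothing of binding.

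**Figure D1:**
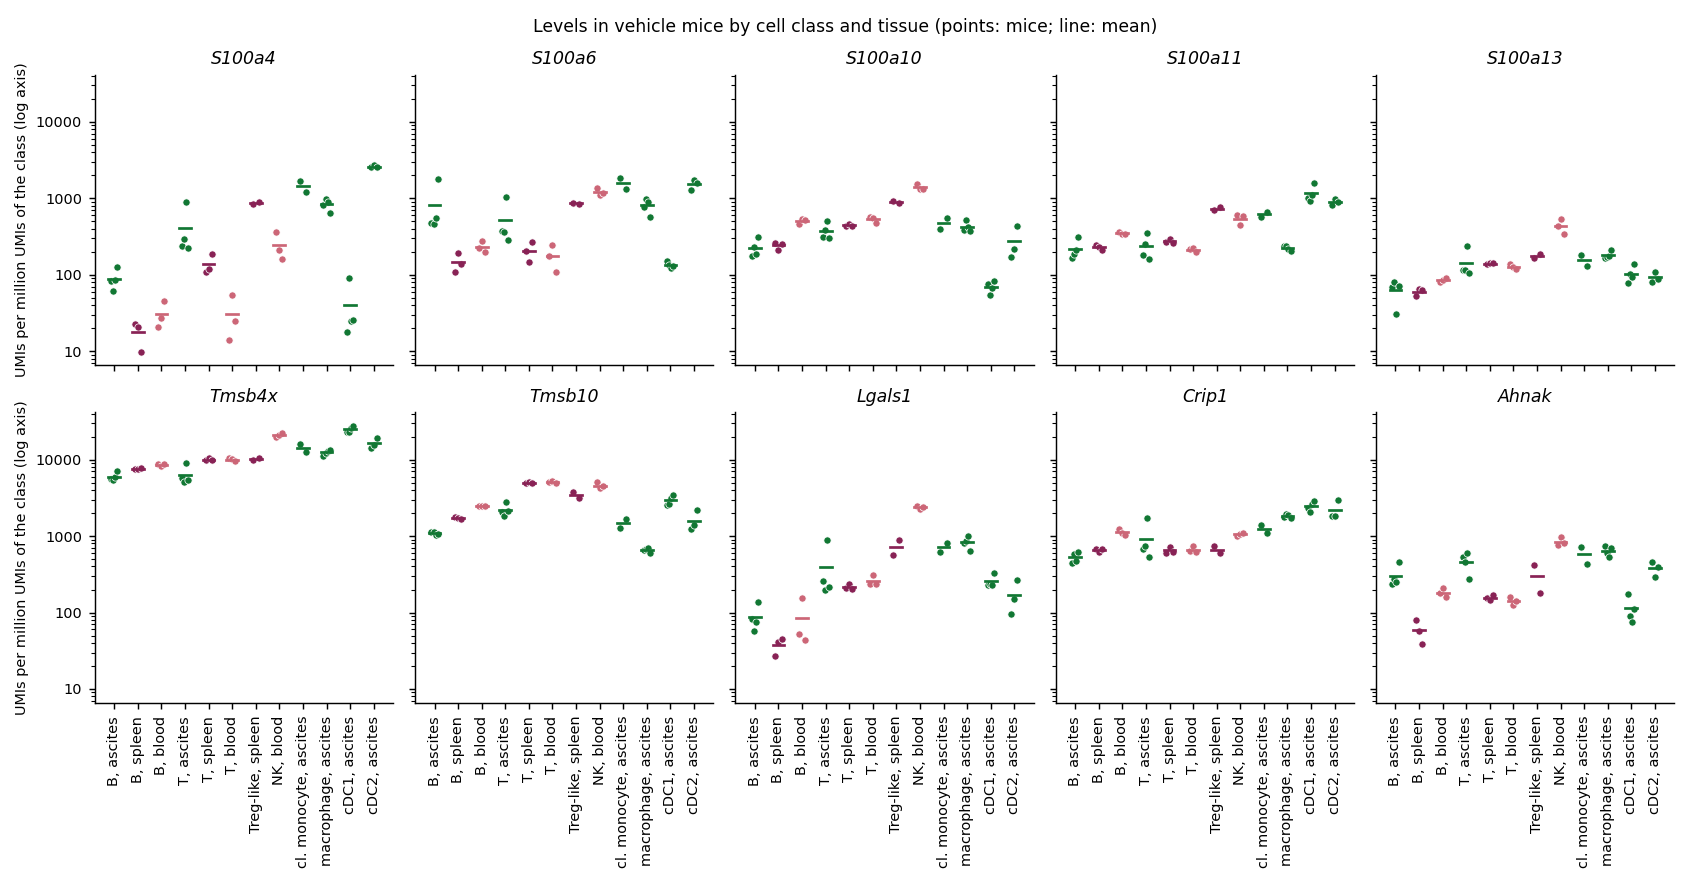
Levels of the 10 genes in vehicle mice by cell class and tissue, in CPM on a log axis; each point is a mouse with at least 20 cells of the class and each line a mean, and mice with no UMI of a gene cannot appear. S100a4 spans from 17.6 in spleen B cells to 2591 in ascites cDC2, while Tmsb4x is the highest of the 10 in each class drawn.

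In vehicle mice the levels ranged widely between cell classes. Among classes with at least 2 such mice, S100a4, which binds calcium and non-muscle myosin, was highest in ascites type 2 conventional dendritic cells (cDC2), at 2591 ± 97.4 CPM (SD, n = 3). Ascites classical monocytes followed at 1443 ± 342 (n = 2), then spleen Treg-like cells at 863 ± 39.0 (n = 2) and ascites macrophages at 834 ± 150 (n = 4), which did not differ beyond their spread. Ascites T cells stood at 411 ± 318 (n = 4), blood NK cells at 247 ± 107 (n = 3), spleen T cells at 139 ± 42.8 (n = 3), ascites B cells at 88.8 ± 27.3 (n = 4), and ascites type 1 dendritic cells (cDC1) at 39.7 ± 34.2 (n = 4). The lowest levels were those of blood B cells, blood T cells and spleen B cells, at 31.0 ± 12.8, 30.9 ± 20.6 and 17.6 ± 6.97 (n = 3 each), and these 3 overlap.

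Lgals1 had another order. Blood NK cells were highest at 2397 ± 99.7 (n = 3), ahead of ascites macrophages at 837 ± 155 (n = 4), ascites classical monocytes at 724 ± 138 (n = 2), Treg-like cells at 719 ± 226 (n = 2) and spleen T cells at 215 ± 16.8 (n = 3). Spleen B cells were lowest at 37.5 ± 9.30 (n = 3). Tmsb10 was highest in blood and spleen T cells, at 5129 ± 156 and 4990 ± 146 (n = 3 each), and lowest in ascites macrophages, at 666 ± 43.1 (n = 4). Tmsb4x was highest in cDC1, at 24959 ± 2430 (n = 4). The 2 thymosins thus had their highest levels in different classes.

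Barcodes of few UMIs can hold RNA from lysed cells, small cells or both, and which of these they held was not tested. Barcodes of under 1000 UMIs carried S100a4 at 621, Lgals1 at 745 and S100a6 at 662 CPM in ascites. Ascites B cells of vehicle mice, at 88.8 for S100a4 and 87.6 for Lgals1, and cDC1, at 39.7 and 257, were under those levels. In spleen and blood the same kind of barcode carried S100a4 at 207, Lgals1 at 155 and S100a6 at 259 CPM.

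Over the 12 class and tissue groups with at least 20 cells, the genes whose vehicle levels ran most like those of S100a4 were Txnrd1, S100a6 and Uba1, with Pearson r of 0.894, 0.881 and 0.860 on log2 levels. For S100a6 they were Txnrd1, S100a4 and Ahnak, at 0.890, 0.881 and 0.869. Lgals1 ran most like S100a13, Rap2b and Myl6, at 0.944, 0.924 and 0.924. Tmsb10 ran most like Eif3h, Tbrg1 and Churc1, at 0.880, 0.876 and 0.845. These were the top 3 of 2667 genes compared, and the groups share libraries and depth.

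Counts past the edgeR threshold between the arms in the classes that chose the genes follow from that choice, so nothing is read from them. In macrophages it was 8 of the 10, all higher, beside 13.2% of 7884 genes in either direction and 6.47% in the higher direction. In ascites classical monocytes it was 3, all higher, beside 1.16% of 3956 genes and 0.708% higher. In spleen classical monocytes it was 6 higher and 1 lower, beside 21.7% of 2902 genes, 10.8% higher and 10.9% lower. In spleen T cells it was 2, both higher, beside 2.49% of 6995 genes and 0.743% higher. It was 0 in ascites T cells beside 0.674% of 4157 genes, in blood T cells beside 0.309% of 3886, in spleen Treg-like cells beside 0.0509% of 1966 and in blood monocytes beside 0% of 2010. In those 4 groups 0, 3, 4 and 0 of the 10 had an unadjusted edgeR p under 0.05, and DESeq2 gave 0, 0, 1 and 0. Among T cell subsets it was 2 in ascites CD4 T cells (0.863% of 2318 genes), 2 in spleen CD8 (1.67% of 5020), 1 in spleen CD4 (0.202% of 1979) and 1 in blood CD8 T cells (0.0355% of 2818). In spleen it was 0 in naive-like T cells (0.609% of 3612) and 0 in the other T cells (2.29% of 5977), with 3 and 4 of the 10 at an unadjusted edgeR p under 0.05.

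Ascites macrophages of treated mice had higher S100a4, S100a6, S100a10, S100a11, Tmsb10, Lgals1, Crip1 and Tmsb4x than those of vehicle mice. S100a4 was 808, 987, 903 and 638 CPM in vehicle mice 1 to 4, and 1656, 1722, 1790 and 2124 in treated mice 1 to 4. Every treated mouse was above every vehicle mouse, a log2 difference of 1.16 ± 0.13 (SE). S100a6, calcyclin, went from 770, 983, 899 and 573 to 1782, 1913, 1834 and 1929, with the arms again apart and a log2 difference of 1.24 ± 0.13. S100a11, a partner of annexin A1, went from 205 to 237 CPM in vehicle mice to 458 to 608 in treated mice, a log2 difference of 1.24 ± 0.12. S100a10, the light chain of the annexin A2 complex, went from 373 to 512 up to 610 to 902 (0.89 ± 0.12). These 4 S100 genes had no overlap between the arms.

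Tmsb10 had the largest log2 difference of the 10 in macrophages. Its levels were 662, 684, 709 and 608 CPM in vehicle mice and 1563, 1679, 1706 and 1772 in treated mice. The lowest treated mouse lay far above the highest vehicle mouse, and the log2 difference was 1.36 ± 0.09. Lgals1 was 638 to 1015 in vehicle and 1471 to 2199 in treated mice (1.12 ± 0.15). Crip1, a small LIM-domain protein, was 1714 to 1955 against 2656 to 3168 (0.67 ± 0.09). Tmsb4x differed least among the 8 genes with separate arms, at 11237 to 13304 against 14242 to 16587 (0.36 ± 0.09). S100a13, a carrier in the export of fibroblast growth factor 1, and Ahnak overlapped between the arms, with log2 differences of 0.05 ± 0.13 and -0.06 ± 0.11.

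The treated mice had fewer and shallower macrophages, 44 to 60 per mouse against 106 to 163, with median UMIs of 8873.5 to 12109 against 15353 to 17799. The 8 macrophage markers were all detected in every mouse and summed to 15270 to 21264 CPM in treated mice against 27523 to 34495 in vehicle mice. Cluster 2 held 166 of 211 treated and 219 of 526 vehicle macrophages, and cluster 7 held 3 of the treated and 231 of the vehicle cells. Within cluster 2 alone the log2 differences were 0.90 for S100a4, 1.04 for S100a6, 1.07 for S100a11 and 1.01 for S100a10, but 0.67 for Tmsb10, 0.67 for Lgals1 and 0.12 for Tmsb4x. The part of this shift in the other differences was not tested.

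Lists of related genes were read beside the 10. Of 27 actin and actin-binding genes, 11 were past the threshold and higher, among them Capg (0.98 ± 0.12), Vim (0.55 ± 0.11), Pfn1 (0.44 ± 0.09) and Actb (0.34 ± 0.08), with a list median of 0.22 against 0.01 over all genes. Of 8 annexins, Anxa2 (0.73 ± 0.14), Anxa1 (0.42 ± 0.13) and Anxa4 (0.40 ± 0.13) were higher and Anxa3 (-0.52 ± 0.11) was lower. Of 4 other S100 genes tested, S100a8 was lower (-0.88 ± 0.27) and none was higher, and of 4 other galectins Lgals9 was higher (0.42 ± 0.12). These counts come from the same contrast as the choice of genes.

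**Figure D2:**
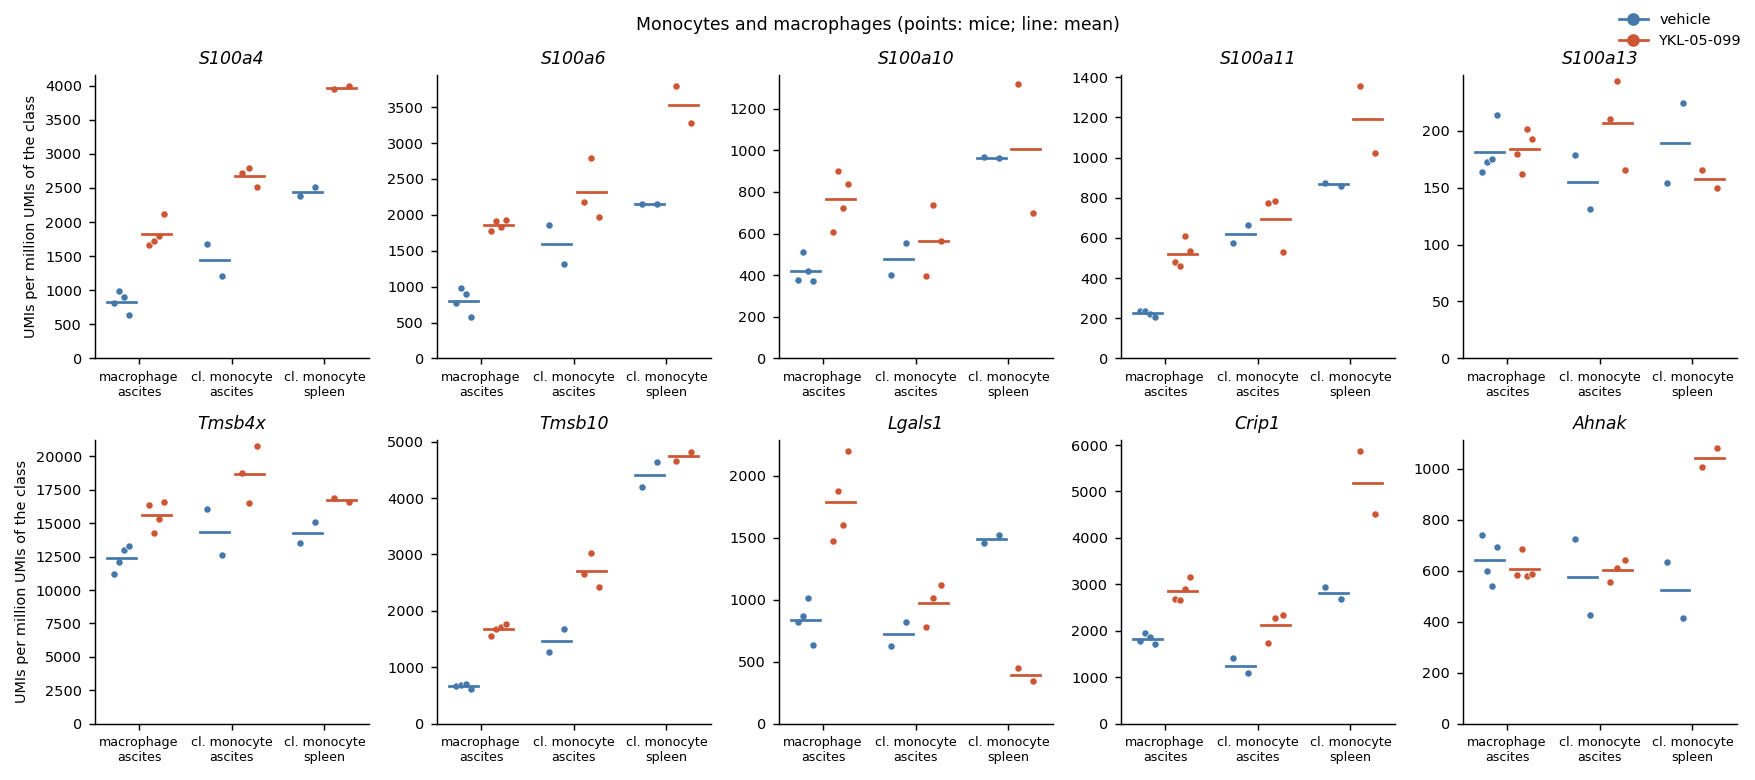
The 10 genes in ascites macrophages, ascites classical monocytes and spleen classical monocytes, in CPM on linear axes from 0; points are mice and lines are means, blue for vehicle and red for YKL-05-099. In ascites macrophages the treated mice stand apart for 8 genes, and in spleen monocytes Lgals1 goes the other way from S100a4, S100a6 and Crip1.

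Classical monocytes of ascites could be compared in 2 vehicle and 3 treated mice. S100a4 was 1685 and 1202 CPM in vehicle mice 1 and 3, and 2718, 2789 and 2520 in treated mice 1, 3 and 4, a log2 difference of 0.94 ± 0.16. Tmsb10 (0.93 ± 0.15) and Crip1 (0.80 ± 0.17) also had arms apart.

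Spleen classical monocytes were compared in 2 mice of each arm, with 11 to 36 cells per mouse under the minimum of 10. S100a4 was 2380 and 2510 CPM in vehicle mice and 3951 and 3997 in treated mice. Crip1 was 2950 and 2675 against 5872 and 4512, and Ahnak, a very large scaffold protein that binds S100a10 and annexin A2, was 635 and 412 against 1005 and 1079. Both had arms apart, with log2 differences of 0.95 ± 0.13 and 1.11 ± 0.19. Lgals1 ran the other way, from 1458 and 1520 to 449 and 343 (-1.88 ± 0.18), together with Ptma, the acidic nuclear protein prothymosin alpha, from 4300 to 1503 (-1.44 ± 0.13).

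With classes taken from clusters in place of marker gates, Lgals1 still ran lower in these spleen monocytes, at a log2 difference of -1.36. S100a4 then stood at a log2 difference of 0.03, Crip1 at 0.06, Ahnak at 0.26 and S100a6 at -0.11. The vehicle cells had median UMIs of 13016 to 15524 against 9234 to 9659. Over all mice, cluster 8 held all 36 treated but 42 of 54 vehicle cells gated as spleen classical monocytes. Cluster 13, which also held B and T cells, had 11 of the vehicle cells. The part of depth and of this mix in the log2 differences was not tested. In monocytes of blood, where 3 vehicle and 2 treated mice had at least 10 cells, the arms overlapped for all 10 genes.

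**Figure D3:**
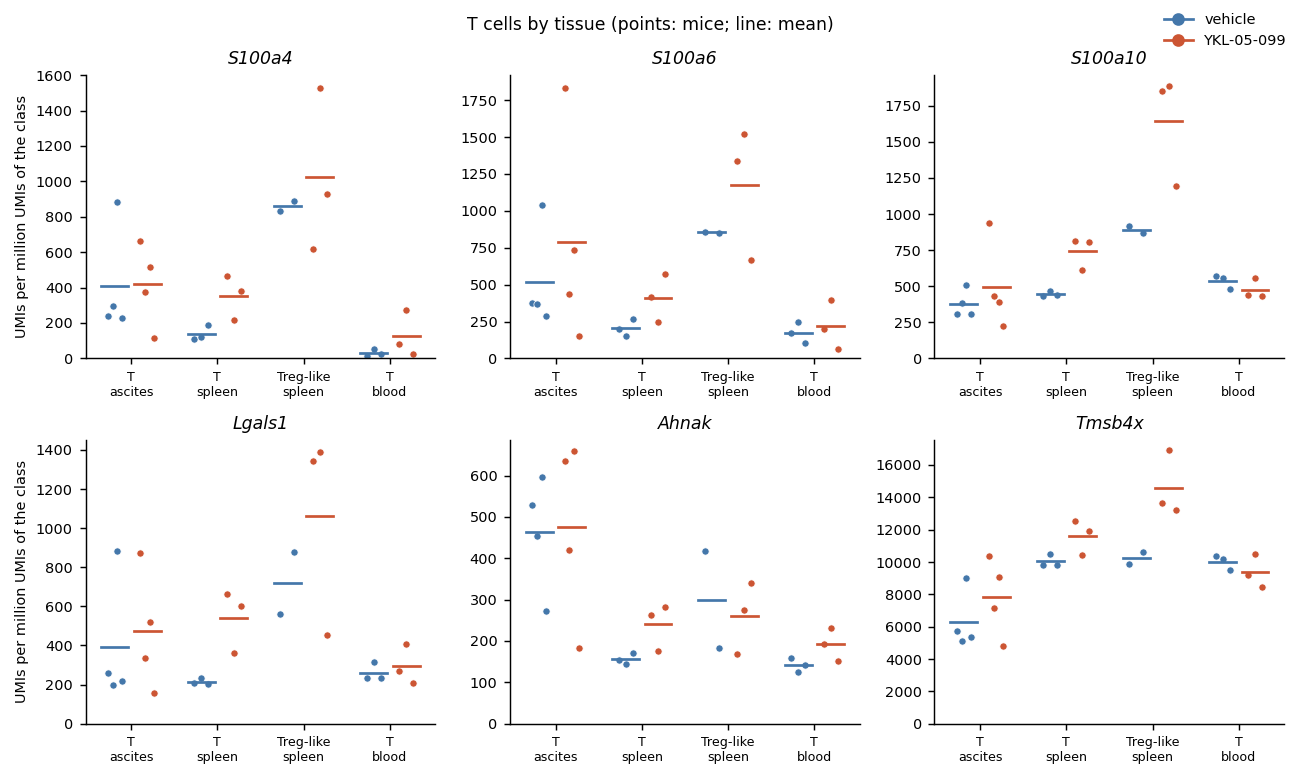
S100a4, S100a6, S100a10, Lgals1, Ahnak and Tmsb4x in T cells of the 3 tissues and in spleen Treg-like cells, in CPM on linear axes from 0; points are mice, lines means, blue vehicle and red YKL-05-099. In spleen T cells the treated mice are above the vehicle mice for S100a4, S100a10, Lgals1 and Ahnak, while in ascites vehicle mouse 3 lies among or above the treated mice.

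Spleen T cells of treated mice were above those of vehicle mice for S100a4, S100a10, S100a13, Lgals1 and Ahnak. Lgals1 was 208, 234 and 203 CPM in vehicle mice 1 to 3 and 661, 361 and 602 in treated mice 2 to 4. Treated mouse 3 was the lowest of its arm and still above all vehicle mice, and the log2 difference was 1.23 ± 0.26. S100a4 was 109, 119 and 188 against 464, 214 and 380 (1.25 ± 0.40), with the same mouse lowest. S100a10 was 430, 466 and 438 against 816, 613 and 807 (0.65 ± 0.08), and Ahnak 155, 144 and 170 against 262, 177 and 281 (0.52 ± 0.13). Both of the last were close within the vehicle arm and apart from the treated arm. S100a6 overlapped, at 202, 148 and 266 against 417, 245 and 575.

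In spleen CD8 T cells alone S100a10 had a log2 difference of 0.69 and Lgals1 of 0.88, and in CD4 T cells alone Lgals1 had 1.57. In naive-like T cells alone Ahnak was at -0.04. Naive-like cells were 79 of 190, 46 of 137 and 58 of 146 spleen T cells in vehicle mice 1 to 3. They were 35 of 145, 53 of 143 and 45 of 170 in treated mice 2 to 4. The part of this mix in the differences was not tested. The summed level of 5 innate-like genes (Rora, Gata3, Il18r1, Zbtb16 and Il1rl1) was 163 to 179 CPM in treated and 112 to 133 in vehicle mice. Without T cells that had a UMI of those genes Lgals1 stood at 1.02 and S100a10 at 0.52. Among the listed genes past the threshold in this same contrast, the naive-cell gene Igfbp4 (-1.01 ± 0.18) was lower in treated mice, and Vim (0.66 ± 0.13), Lgals3 (1.33 ± 0.23) and the integrin gene Itgb1 (0.63 ± 0.16) were higher.

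Ascites T cells showed no such separation. S100a4 was 237, 296, 885 and 226 CPM in vehicle mice 1 to 4 and 665, 377, 519 and 114 in treated mice 1 to 4. Vehicle mouse 3, with 31 cells, was highest of all 8, and treated mouse 4, with 266 cells, was lowest. Lgals1 had the same highest and lowest mice, at 260, 197, 885 and 217 against 874, 338, 521 and 158. S100a6 was 377, 367, 1043 and 287 against 1836, 437, 736 and 152, where treated mouse 1 was highest and vehicle mouse 3 was next. All 10 genes overlapped between the arms. T cells that were not naive-like were 26 of 53, 19 of 40, 22 of 31 and 82 of 173 in vehicle mice 1 to 4. In treated mice 1 to 4 they were 49 of 68, 34 of 45, 55 of 71 and 138 of 266. The part of this mix in the levels was not tested. In CD4 T cells alone 2 vehicle mice (1 and 4) and 4 treated mice had at least 10 cells, so vehicle mice 2 and 3 did not enter. There S100a10 was 146 and 153 CPM against 611, 430, 397 and 246, with arms apart. Its log2 difference was 1.42, and that of Tmsb4x was 0.82. The innate-like genes summed to 179 to 451 CPM in vehicle and 206 to 627 in treated mice. Tcf7, a transcription factor of naive and memory T cells, was lower in treated ascites T cells at 675 to 323 CPM (-1.06 ± 0.19).

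In blood T cells S100a4 was 14.2, 54.0 and 24.5 CPM in vehicle and 82.2, 276 and 23.1 in treated mice. The arms overlapped for all 10 genes. In CD8 T cells of blood alone S100a10 was lower in treated mice, with a log2 difference of -0.62.

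Treg-like cells were named in spleen only, where 67 of 125 gated cells had a Foxp3 UMI. In ascites 2 of 20 did, and those cells are not called Treg here. In spleen S100a10 was 914 and 867 CPM in vehicle mice 1 and 2 and 1852, 1883 and 1196 in treated mice 2 to 4, a log2 difference of 0.89 ± 0.22. Crip1 was 733 and 599 against 1180, 2506 and 1589 (1.41 ± 0.32). Both had arms apart, as did Tmsb4x (0.52 ± 0.14) and Tmsb10 (0.49 ± 0.16).

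In vehicle spleen the Treg-like cells of mice 1 and 2 were also compared with the other CD4 T cells of the same mice. These vehicle values also entered the choice of the genes. S100a4 was 254 ± 118 in other CD4 T cells and 863 ± 39.0 in Treg-like cells (SD, n = 2), and Lgals1 was 225 ± 30.3 against 719 ± 226. The log2 changes were 1.68 ± 0.37 and 1.48 ± 0.34 (SE), with edgeR adjusted p of 0.16 and 0.19. None of the 10 genes passed, beside 0.249% of 2011 genes, with 6 at an unadjusted edgeR p under 0.05 and 0 by DESeq2. Without the mouse as a block S100a4, S100a6 and Lgals1 passed, with log2 changes of 1.66, 1.41 and 1.52 and edgeR adjusted p of 0.026, 0.045 and 0.032.

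The cell classes that took no part in the choice of the genes were tested next, beginning with dendritic cells of ascites. In cDC1, which present antigen to CD8 T cells, 6 of the 10 genes rose with YKL-05-099 and none fell, beside 15.9% of 6004 genes in either direction and 7.81% in the higher direction. S100a10 changed most. It was 75.2, 54.5, 66.2 and 82.2 CPM in vehicle mice and 234, 195, 190 and 170 in treated mice, with every treated mouse far above every vehicle mouse. The log2 change was 1.43 ± 0.14 (SE, n = 4 and 4, edgeR adjusted p = 2.1e-09).

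Tmsb10 in cDC1 was 2560, 2601, 3115 and 3402 CPM in vehicle and 4305, 4433, 3871 and 3907 in treated mice. The arms were apart, and the log2 change was 0.45 ± 0.08 (edgeR adjusted p = 2.1e-04). Crip1 was 2356, 2040, 2604 and 2899 against 3164, 3093, 3320 and 3360, also apart, with a log2 change of 0.34 ± 0.08 (edgeR adjusted p = 0.0046). S100a11 was 1009, 918, 1114 and 1590 against 1953, 1582, 1784 and 2110, where vehicle mouse 4 overlapped treated mouse 2. Its log2 change was 0.64 ± 0.15 (edgeR adjusted p = 0.014), and without vehicle mouse 3 the edgeR adjusted p was 0.11.

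The other 2 calls in cDC1 were lost without any of several mice, though the changes kept their direction. Tmsb4x had a log2 change of 0.26 ± 0.07 (edgeR adjusted p = 0.016), and the arms were apart. Without treated mouse 1 or 4 the edgeR adjusted p of Tmsb4x was 0.05 or 0.093, and without vehicle mouse 1 or 2 it was 0.12 or 0.058, with log2 changes of 0.21 to 0.26 in these fits. Lgals1 had a log2 change of 0.44 ± 0.14 (edgeR adjusted p = 0.036), and its call was lost without treated mouse 1, 2 or 4 or vehicle mouse 1, 2 or 3, with edgeR adjusted p from 0.069 to 0.13 and log2 changes of 0.29 to 0.45. S100a4, S100a6, S100a13 and Ahnak did not pass, at log2 changes of 0.83 ± 0.70, 0.66 ± 0.24, 0.35 ± 0.15 and 0.36 ± 0.20. S100a6 was 152, 135, 123 and 129 against 309, 195, 133 and 249, with treated mouse 3 inside the vehicle range.

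Depth was close between the arms of cDC1, with median UMIs of 18117 to 19792 in treated and 17747 to 20301.5 in vehicle mice. The summed macrophage markers were 717 to 785 against 690 to 993 CPM, in a class whose gate set aside cells high in C1q transcripts. Cluster 4 held 143 of 160 treated and 169 of 184 vehicle cDC1. Cluster 12, which also held macrophages, had 13 of the treated and 6 of the vehicle cells, and cluster 14 had 1 and 7. The part of this mix in the changes was not tested. The 10 genes together took 3.22% ± 0.347 of cDC1 UMIs in vehicle and 4.12% ± 0.186 in treated mice (SD). Actin and actin-binding genes moved with them. Of 26 tested 13 rose and none fell, including Tagln2 (0.95 ± 0.11), Tpm4 (0.68 ± 0.12), Pfn1 (0.44 ± 0.08) and Myl6 (0.46 ± 0.10), with a list median of 0.27 against -0.01 over all genes. Anxa2, the annexin that S100A10 binds, rose by 0.53 ± 0.12 on the log2 scale, Lgals3 by 0.34 ± 0.10 and Ptma by 0.40 ± 0.08. Of 5 LIM genes Csrp1 rose (1.02 ± 0.22) and Limd2 fell (-0.88 ± 0.17).

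**Figure D4:**
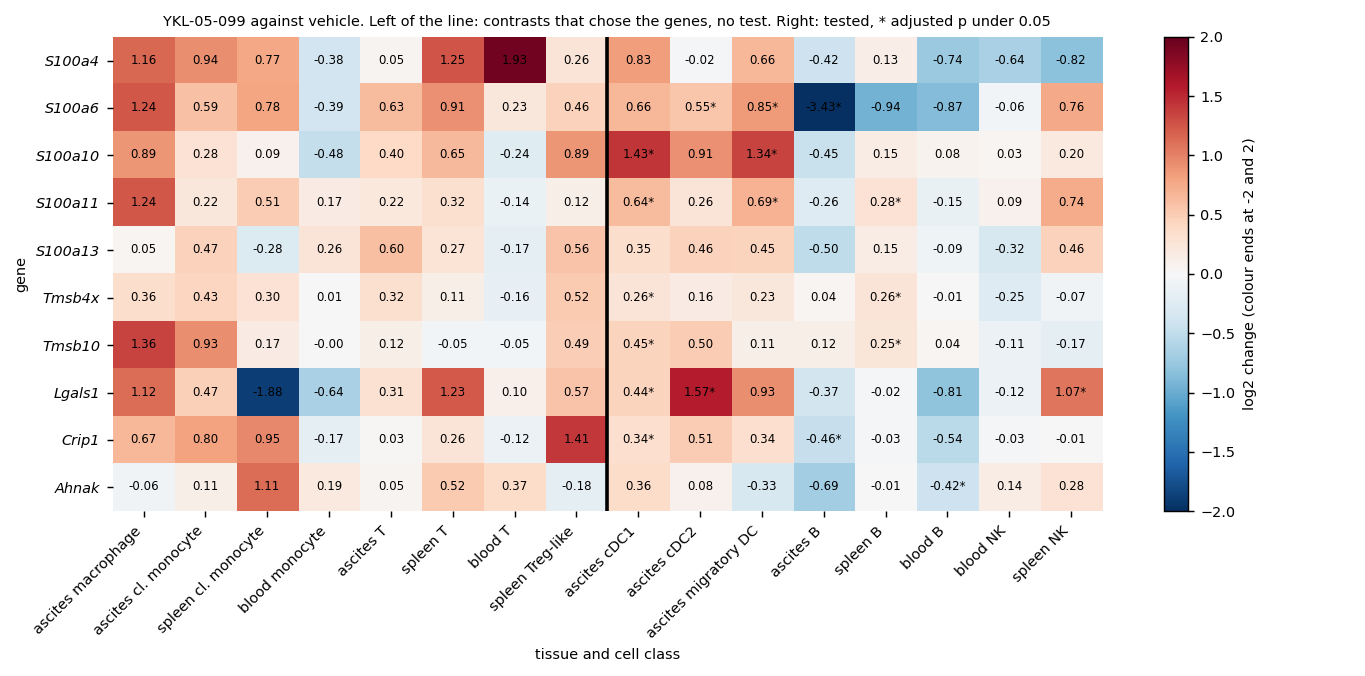
Log2 changes of the 10 genes under YKL-05-099 in 16 tissue and class comparisons; red is higher and blue lower in treated mice, with colour ending at -2 and 2. Left of the line are the contrasts that chose the genes, with no test, and right of it the tested classes, where a star marks an edgeR adjusted p under 0.05. The tested dendritic cell columns are mostly red and the ascites B cell column mostly blue.

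In cDC2 the comparison had 3 vehicle and 2 treated mice. Lgals1 was 97.0, 151 and 263 CPM in vehicle mice 1, 3 and 4 and 461 and 543 in treated mice 1 and 3. The arms were apart, with a log2 change of 1.57 ± 0.28 (edgeR adjusted p = 0.015), and without vehicle mouse 3 the change was 1.51 (edgeR adjusted p = 0.097). S100a6 rose by 0.55 ± 0.15 on the log2 scale (edgeR adjusted p = 0.041). Its call was lost without treated mouse 1 or 3 or vehicle mouse 1 or 3, with edgeR adjusted p from 0.078 to 0.48. These were 2 of 10 genes, beside 3.02% of 4507 genes in either direction and 1.51% in the higher direction. The count was 0 without vehicle mouse 3, 5 without vehicle mouse 4 and 1 without any other mouse. S100a4, already high in these cells, was 2534, 2704 and 2536 against 2535 and 2701, a log2 change of -0.02 ± 0.14 (edgeR adjusted p = 0.98). With 10 cells as the minimum all 8 mice entered, and 5 of the 10 genes passed. Over all genes the count moved between 17 and 612 across alternatives, against 136 in the main fit. The 3.02% is therefore not the share to set beside those 5, and nothing is read from that count. S100a10, Tmsb10 and Crip1 had log2 changes of 1.06, 0.56 and 0.62 at the minimum of 10. Vim (0.78 ± 0.19) and Lgals3 (0.60 ± 0.16) also rose. Over all mice, cluster 6 held 59 of 77 treated and 98 of 109 vehicle cDC2. Cluster 2, which also held many macrophages, had 13 of the treated and 7 of the vehicle cells. The part of this mix in the changes, that of Lgals1 included, was not tested.

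Migratory dendritic cells, which carry antigen to lymph nodes, were compared at the minimum of 10 cells, with 11 to 19 cells per vehicle mouse and 19 to 50 per treated mouse. S100a10 was 168, 44.2, 33.6 and 87.6 CPM in vehicle and 178, 199, 243 and 247 in treated mice, a log2 change of 1.34 ± 0.33 (edgeR adjusted p = 0.020). The arms were apart, though vehicle mouse 1 came close. S100a11 was 690, 890, 571 and 923 against 1071, 1243, 1235 and 1466 (0.69 ± 0.16, edgeR adjusted p = 0.011), again apart. S100a6 rose by 0.85 ± 0.23 (edgeR adjusted p = 0.036).

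These were 3 of 10 genes in migratory dendritic cells, beside 6.73% of 2466 genes in either direction and 3.65% in the higher direction. Without vehicle mouse 2 the count was 1. The S100a10 call was lost without treated mouse 3 (edgeR adjusted p = 0.072), vehicle mouse 2 (0.075) or vehicle mouse 4 (0.054). S100a6 lost its call without treated mouse 1, 2 or 4 or vehicle mouse 1, 2 or 3, with edgeR adjusted p from 0.050 to 0.11. S100a4 was 1207, 1952, 2716 and 3550 CPM in vehicle and 3879, 3959, 3341 and 3694 in treated mice, with a log2 change of 0.66 ± 0.26 (edgeR adjusted p = 0.19) and vehicle mouse 4 inside the treated range. Vim rose (1.21 ± 0.27) and Cotl1 fell (-0.76 ± 0.21), the only 2 of 24 tested actin-list genes to pass. S100a10 was called in cDC1 and migratory cells and, at the minimum of 10 cells, in cDC2.

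B cells of ascites went the other way for some of the genes. S100a6 was 480, 465, 548 and 1800 CPM in vehicle mice 1 to 4 and 71.2, 66.2, 62.0 and 116 in treated mice 1 to 4. All 4 treated mice were far under all 4 vehicle mice, with a log2 change of -3.43 ± 0.75 (edgeR adjusted p = 0.044). Crip1 was 443, 588, 478 and 612 against 418, 463, 416 and 373, with treated mouse 2 above vehicle mouse 1, and fell by 0.46 ± 0.12 on the log2 scale (edgeR adjusted p = 0.0069). These 2 of 10 genes fell and none rose, beside 7.61% of 5427 genes in either direction and 4.33% in the lower direction.

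The S100a6 call was lost without most single mice, with changes about as large. Leaving out any treated mouse gave edgeR adjusted p from 0.11 to 0.14, and leaving out vehicle mouse 1, 2 or 3 gave 0.056 to 0.066, at log2 changes between -3.78 and -3.31. The Crip1 call was lost without treated mouse 4 (edgeR adjusted p = 0.059). A cluster numbered 11 held 91 of 656 vehicle and 6 of 302 treated B cells and was high in S100a6. Vehicle mice 2 and 4 had enough cells in it for a value, 1721 and 4326 CPM. Its cells had median UMIs of 8112 and 11289 in those mice, against 3519 and 3842 in their other B cells. It thus weighed more in the summed counts than its share of cells, with 692631 of 1762706 B cell UMIs in vehicle mouse 4. Without that cluster S100a6 was 73.1, 71.8, 153 and 164 in vehicle mice and 68.1, 66.2, 59.6 and 118 in treated mice, which overlap, at a log2 change of -0.55 ± 0.37 (edgeR adjusted p = 0.56). Crip1 then had a log2 change of -0.23 ± 0.11 (edgeR adjusted p = 0.25), and Tmsb4x passed in place of both (0.19 ± 0.05, edgeR adjusted p = 0.021), as 1 of 10 genes beside 5.75% of 4908.

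**Figure D5:**
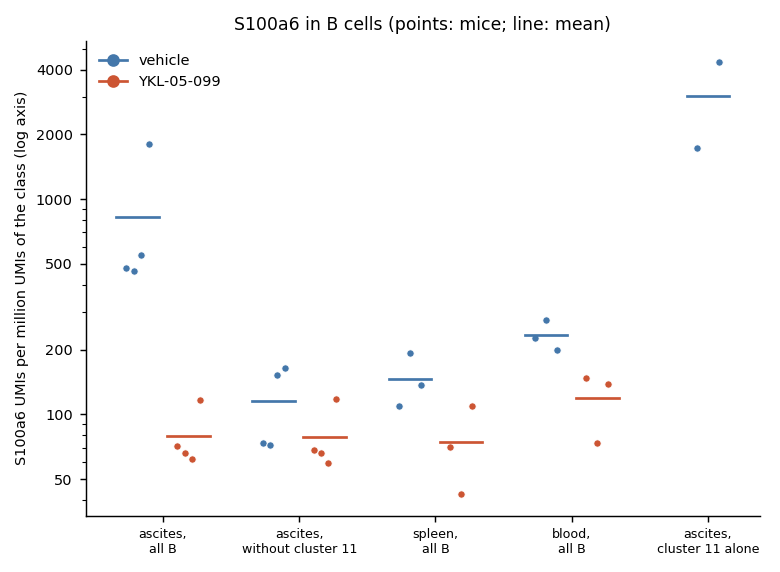
S100a6 in B cells, in CPM on a log axis; points are mice, lines means, blue vehicle and red YKL-05-099. In ascites all 4 vehicle mice lie above all 4 treated mice, the arms overlap once cluster 11 is left out, and cluster 11 alone is shown for the 2 vehicle mice with at least 10 of its cells.

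Other genes that fell in ascites B cells with S100a6 were Lmna (-2.29 ± 0.34), Capg (-0.82 ± 0.18) and Vim (-0.74 ± 0.16) of the actin and filament list, while Tpm4 (0.61 ± 0.15) and the LIM gene Zyx (1.05 ± 0.18) rose. Without cluster 11 none of 26 tested genes of the actin and filament list fell and 2 rose.

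In spleen B cells 3 of the 10 genes rose and none fell, beside 3.73% of 8043 genes in either direction and 2.01% in the higher direction. Tmsb4x was 7633, 7458 and 7850 CPM in vehicle mice and 9092, 8535 and 8733 in treated mice, with arms apart and a log2 change of 0.26 ± 0.05 (edgeR adjusted p = 2.9e-04). Tmsb10 was 1793, 1705 and 1692 against 2039, 1864 and 1986, also apart (0.25 ± 0.06, edgeR adjusted p = 0.0060), and without treated mouse 2 the edgeR adjusted p was 0.070. S100a11 rose by 0.28 ± 0.08 (edgeR adjusted p = 0.047), and leaving out any of the 6 mice took its edgeR adjusted p to between 0.054 and 0.16. S100a6 was 109, 194 and 137 against 70.6, 42.6 and 109, a log2 change of -0.94 ± 0.42 that did not pass (edgeR adjusted p = 0.42). With the thymosins 5 of 26 actin-list genes rose, among them Cotl1 (0.52 ± 0.10), Myl6 (0.43 ± 0.08), Pfn1 (0.34 ± 0.06) and Actb (0.28 ± 0.05). Cluster 4 held 26.6% of treated and 17.6% of vehicle spleen B cells, and cluster 0 held 23.1% and 31.2%. Median UMIs were 6763 to 7571 in treated and 6370 to 6534 in vehicle mice. The part of this mix and depth in the changes was not tested.

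Blood B cells had Ahnak as the only 1 of 10 genes to pass, beside 0.974% of 6880 genes in either direction and 0.334% in the lower direction. Ahnak was 178, 207 and 160 CPM in vehicle mice and 161, 115 and 116 in treated mice. Treated mouse 2 lay inside the vehicle range. The log2 change was -0.42 ± 0.11 (edgeR adjusted p = 0.038), and without treated mouse 3 or 4 or vehicle mouse 1 or 2 the edgeR adjusted p was 0.087 to 0.30. S100a6 was 226, 274 and 198 against 147, 73.2 and 138, and Crip1 1223, 1099 and 1023 against 905, 632 and 691, both with arms apart. Their log2 changes of -0.87 ± 0.25 and -0.54 ± 0.14 did not pass (edgeR adjusted p = 0.31 and 0.29). Without treated mouse 2 or 4 the count was 2, without vehicle mouse 3 it was 3 with S100a6 and Crip1 past the threshold, and without vehicle mouse 1 it was 0. By point estimate S100a6 was lower in treated B cells of all 3 tissues, and of these it passed in ascites.

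The difference of the treatment effect between ascites and spleen B cells was tested for the 10 genes. In this fit ascites and spleen sums of a same-numbered mouse entered as separate samples, without a block for the mouse. Crip1 had an ascites effect lower than the spleen effect by 0.48 ± 0.14 on the log2 scale (edgeR adjusted p = 0.044), the only 1 of 10, beside 2.32% of 7621 genes in either direction and 1.96% in the lower direction. That call was lost without any treated mouse or without vehicle mouse 2 or 4, with edgeR adjusted p from 0.059 to 0.28, and without vehicle mouse 1 the count was 3. S100a6 had a difference of -2.54 ± 0.96 (edgeR adjusted p = 0.27). Tissue and library cannot be told apart in this comparison.

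NK cells were compared in spleen with 2 vehicle and 3 treated mice at the minimum of 10 cells. Lgals1 was 1064 and 742 CPM in vehicle and 1594, 1834 and 1957 in treated mice, with arms apart and a log2 change of 1.07 ± 0.18 (edgeR adjusted p = 2.8e-04). It was the only 1 of 10 genes to pass, beside 0.781% of 1024 genes in either direction and 0.195% in the higher direction. Without treated mouse 3 the edgeR adjusted p was 0.14, and without vehicle mouse 2 it was 0.058. Without vehicle mouse 1 the count was 2, with S100a6 added. In blood NK cells Lgals1 was 2486, 2289 and 2416 in vehicle mice against 2155 and 2173 in treated mice 3 and 4, with arms apart and a log2 change of -0.12. None of the 10 genes passed, beside 0.314% of 2227 genes, with 2 at an unadjusted edgeR p under 0.05 and 0 past the threshold of DESeq2. Without vehicle mouse 1 or 2 Tmsb4x passed (edgeR adjusted p = 0.038 and 0.043). Whether the effect on Lgals1 differs between spleen and blood NK cells was not tested.

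Spleen and blood of the same vehicle mice were compared to see where the genes differ without the drug. The vehicle values of T cells and monocytes used here also entered the choice of the genes, while those of B and NK cells did not. In T cells S100a4 was 109, 119 and 188 CPM in spleen and 14.2, 54.0 and 24.5 in blood, with a log2 change of 2.02 ± 0.19 (edgeR adjusted p = 3.5e-24) when the mouse was a block. Spleen was above blood in all 3 mice, least so in mouse 2. The small p-value rests in part on spread borrowed from other genes, not on these 3 differences alone. Without the block the edgeR adjusted p was 0.12, and with at most 5% mitochondrial UMIs the change was 1.59 (edgeR adjusted p = 0.45). S100a10 and Lgals1 were lower in spleen T cells, both by 0.40 on the log2 scale (SE 0.08 and 0.10, edgeR adjusted p = 5.1e-06 and 0.0019), as were Tmsb10 (-0.17 ± 0.03) and Tmsb4x (-0.13 ± 0.03) after TMM scaling. The unscaled Tmsb4x levels had no such direction, at 10012 ± 444 in blood and 10036 ± 403 in spleen. Without vehicle mouse 2 the edgeR adjusted p of Lgals1 was 0.098, and without vehicle mouse 1 that of Tmsb4x was 0.25. Cluster 2 held 81.1% of blood and 47.4% of spleen T cells of vehicle mice, cluster 7 held 1.26% and 10.1%, and cluster 9 held none of the blood and 16.1% of the spleen cells. The part of this mix in the differences was not tested. These were 1 higher and 4 lower of 10 genes, beside 8.85% of 6385 in either direction, 3.62% higher and 5.23% lower.

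B cells showed a single direction between the tissues. Of the 10 genes 6 were lower in spleen and none higher, beside 15.8% of 7707 genes in either direction and 6.85% in the lower direction. Ahnak changed most, from 182 ± 24.0 CPM in blood to 58.7 ± 20.7 in spleen (SD, n = 3), a log2 change of -1.43 ± 0.14 (edgeR adjusted p = 9.4e-08). S100a10 went from 458, 534 and 521 to 260, 213 and 252 (-0.85 ± 0.09). Crip1 went from 1223, 1099 and 1023 to 682, 613 and 675 (-0.56 ± 0.07). S100a6 (-0.48 ± 0.11), S100a11 (-0.40 ± 0.09) and Tmsb10 (-0.31 ± 0.05) were also lower, and without vehicle mouse 1 the edgeR adjusted p of S100a6 was 0.079. The tissues held different B cells by cluster, with 80.9% of blood but 31.2% of spleen B cells in cluster 0, and 46.7% of spleen B cells in cluster 1 against 7.76% of blood. The part of this mix was not tested. Beside the 6 genes, Vim (-1.07 ± 0.09) and Tagln2 (-1.18 ± 0.12) were lower.

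In NK cells, with 2 vehicle mice of at least 10 cells in both tissues, 3 of the 10 genes were lower in spleen and none higher, beside 6.92% of 1199 genes in either direction and 3% in the lower direction. By DESeq2 none passed. Lgals1 went from 2388 ± 139 CPM in blood to 903 ± 227 in spleen (SD, n = 2), a log2 change of -1.39 ± 0.22 (edgeR adjusted p = 5.6e-08). S100a6 (-1.43 ± 0.35) and S100a13 (-1.14 ± 0.35) were lower as well. Monocytes, at the minimum of 10 cells, had the opposite direction for Lgals1. It went from 142, 73.9 and 405 CPM in blood to 977, 1356 and 1487 in spleen, with the tissues apart and a log2 change of 2.77 ± 0.34 (edgeR adjusted p = 3.9e-05). S100a10 (1.42 ± 0.26) and Crip1 (0.61 ± 0.19) were higher too, making 3 of 10 genes beside 22.8% of 3296 in either direction and 12.7% in the higher direction. Without vehicle mouse 2 the edgeR adjusted p of S100a10 was 0.053 and that of Crip1 0.34, and without vehicle mouse 1 that of Crip1 was 0.082. Of 85 vehicle monocytes in blood 47 were non-classical, against fewer than 10 in each spleen, and the part of this mix in the differences was not tested.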

How the data were processed

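The deposited files hold raw UMI counts of genes and hashtag antibodies, made by the authors with Cell Ranger 6.1.1 on the mm10 genome, per the submitters' processing notes, from 10x 3' v3.1 libraries, per the labels. The hashtag notes gave arm, mouse and tissue. Filters were at least 200 genes, 500 UMIs and no more than 10% mitochondrial UMIs, and hashtags were assigned with HTODemux (Seurat 5.3.0, quantile 0.99), which removed barcodes with tags of several samples; doublets within a sample remain. Cells were classed by marker transcripts other than the 10 genes, and clusters came from scanpy 1.11.5 (Leiden, leidenalg 0.10.2, resolution 1). Counts were summed per mouse and class and tested with edgeR 4.0.16 in R 4.3.3 (quasi-likelihood test, two-sided, robust; TMM; filterByExpr; Benjamini-Hochberg over all genes). Spleen and blood of a vehicle mouse were blocked by mouse, as were Treg-like and other CD4 T cells. The B cell interaction between ascites and spleen had no such block. Same-numbered mice of the 2 arms did not deviate together in most classes (correlations of -0.068 to 0.33), so arms are not paired. The script was tested on simulated data. The 10 genes, the lists and the tests were chosen with earlier results of these data known. Named genes are the 10, up to 4 past the threshold per list and comparison, the 3 most alike in level for 4 of the genes, and Crem. Alternatives covered normalization, DESeq2 1.42.0, filters, hashtag rule, classes, T cell subsets, left-out mice and the block. Sequences are GENCODE M21 transcripts and RefSeq promoters of GRCm38.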

Additional observations from a re-analysis of the deposited data

Results flagged for a closer look

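Single mice that stood apart from the others of their group were sought in 100 groups of 4 mice, and 12 were found. Chance flags about 1 in 20 such groups. The groups reuse the same 8 mice for all 10 genes and are not independent, so no excess is read from the 12. In ascites T cells vehicle mouse 3 stood above the other vehicle mice for 5 genes. Its S100a4 was 885 CPM against 226 to 296, its S100a6 1043 against 287 to 377, and its S100a13 239 against 104 to 117. Its Tmsb4x was 9027 against 5095 to 5727, and its Lgals1 885 against 197 to 260. It had 31 T cells, the fewest of the 8 mice, and 22 of them were not naive-like.

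In ascites B cells vehicle mouse 4 stood apart for S100a6, at 1800 CPM against 465 to 548, and for Ahnak, at 453 against 237 to 271. Treated mouse 4 had S100a6 at 116 against 62.0 to 71.2. In cDC1, vehicle mouse 2 had S100a4 at 90.8 against 18.0 to 25.3, and vehicle mouse 4 had Lgals1 at 328 against 230 to 239. Treated mouse 2 had Ahnak at 687 against 579 to 585 in macrophages, and at 212 against 106 to 111 in migratory dendritic cells.

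Crip1 passed the threshold in an edgeR interaction test of all genes for YKL-05-099 in B cells of ascites and spleen. The difference was -0.48 on the log2 scale (edgeR adjusted p = 0.044, lost without any single treated mouse and without vehicle mouse 2 or 4). The call was also lost with DESeq2 size factors. Cluster 11, with 91 of 656 vehicle and 6 of 302 treated ascites B cells, was part of this test. A fit without it was not run, and tissue and library cannot be told apart.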

How the results depend on the processing

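In counts of the 10 genes past the threshold, leaving out single mice gave 7 to 8 in macrophages, 0 to 5 in ascites classical monocytes, 5 to 6 in spleen classical monocytes, 0 to 1 in blood monocytes, and 0 to 0 in ascites and in blood T cells. It gave 1 to 6 in spleen T cells, 0 to 1 in Treg-like cells, 4 to 7 in cDC1, 0 to 5 in cDC2 and 1 to 4 in migratory dendritic cells. It gave 0 to 3 in ascites B cells, 1 to 2 in spleen B cells, 0 to 3 in blood B cells, 0 to 2 in spleen NK cells, 0 to 1 in blood NK cells and 0 to 3 in the B cell interaction. Between spleen and blood it gave 4 to 5 in T cells, 6 to 7 in B cells and 1 to 4 in monocytes. Counts between the arms in T, Treg-like, monocyte and macrophage classes come from the contrasts that chose the genes and support nothing. An arm left with 1 mouse is assumed to vary like the other.

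With a replicate block for the mouse number, spleen T cells had 4 genes in place of 2, blood B cells 3 in place of 1 and cDC2 5 in place of 2; without the pairing of tissues or subsets in the same mouse, T cells between spleen and blood had 3 in place of 5 and Treg-like cells 3 in place of 0. The hashtag fraction rule gave 1 in ascites B cells (2 in the main setting) and 7 in cDC2. At most 5% mitochondrial UMIs gave 0 in ascites B cells, 2 in T cells between spleen and blood, 1 in spleen T cells and 1 in cDC2. The DESeq2 Wald test gave 2 in blood B cells, 0 in NK cells between tissues (3), 4 in spleen T cells, 1 in Treg-like cells and 1 in cDC2, and DESeq2 size factors gave 0 in the B cell interaction (1). No low-count filter gave 3 in blood B cells, 3 in Treg-like cells, 1 in Treg-like against CD4 cells, 5 in migratory cells (3) and 4 in the interaction. At least 10 cells gave 5 in cDC2. Classes from clusters gave 1 in spleen T cells, 4 in Treg-like cells, 6 in cDC2, 6 in ascites classical monocytes (3) and 1 in spleen classical monocytes (7), where S100a6 turned from 0.78 to -0.11.

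Alternatives added after seeing the data gave 1 in ascites B cells without cluster 11, and in spleen T cells 0 for naive-like and 0 for other cells. Planned subsets gave 2 in ascites CD4 T cells, 1 in blood CD8 T cells and 1 in spleen CD4 T cells. Ahnak turned from 0.52 to -0.037 in naive-like spleen T cells. The cause was not tested. Leaving out mice was not run for NK cells between tissues or Treg-like against CD4 cells, which have 2 mice, and some stricter filters left under 2 mice per arm. Counts over all genes also moved, for example 700 to 2109 in macrophages (1038), 43 to 498 in ascites B cells (413) and 17 to 612 in cDC2 (136). Limits are the few cells per mouse in monocytes, Treg-like, NK and migratory cells, the loss of RNA-rich cells at hashtag assignment in ascites, 1 library per tissue type, and 2 to 4 mice per arm.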
